A study of Mus musculus with 8 samples.

Results

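The kinesin genes of the fetal mouse bowel were compared between sorted enteric neural crest-derived cells and the remaining bowel cells. Members were all rows of the gene count table whose symbol is *Kif* or *Kifc* with a number and at most a closing letter, or *Klc1* to *Klc4*, which gave 44 of 29092 genes. By their best known roles 13 were grouped as mitotic kinesins, 21 as transport kinesins and light chains, and 10 as other kinesins, and all 44 had enough reads to be tested. Several members are known to act both in dividing cells and in axons, so the classes are a guide to roles rather than a partition of them.

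The samples were made by fluorescence-activated cell sorting of bowels from E13.5 *Ednrb-EGFP* embryos, bred from heterozygous *Ednrb-EGFP* and C57BL/6J mice. GFP+ enteric neural crest-derived cells (ENCDCs) gave 4 libraries, and GFP- gut cells from the same kind of bowel gave 4. Both populations therefore carried the transgene, which is driven by *Ednrb* regulatory sequence and which marks the whole enteric lineage at this age, and the labels give their genotype as wild-type. Each library was made from 750 pg of purified RNA, and the authors pooled RNA samples where needed to reach this amount. It is not stated which animals or litters a numbered library came from, or which libraries were pools. The p-values therefore describe the spread between these libraries, which may in part be technical, and not the spread between animals.

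Kinesins are motors that use ATP to walk along microtubules, mostly toward the plus end, while cytoplasmic dynein moves cargo the other way. In a neuron the axonal microtubules point their plus ends outward, so transport kinesins carry vesicles, mitochondria and other cargo toward the growth cone. In a dividing cell other kinesins push spindle poles apart, move and align chromosomes, shorten microtubules and build the midzone at which the cell divides. At E13.5 the enteric lineage holds both dividing progenitors and neurons that are extending axons.

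The deposited totals were alike, between 13250893 and 13264785 counts in ENCDC libraries and between 13257119 and 13267220 in gut libraries. A list of 8 crest and neuron markers summed to between 49769 and 58461 normalized counts in ENCDC libraries and between 746 and 962 in gut libraries, and all 8 were called higher in ENCDCs. All 6 mesenchyme markers and all 6 smooth muscle markers were called lower. ENCDC library 3 stood apart from the others on a second principal component that held 11.4% of the variance. Its mesenchyme marker sum was 12.2% of the gut mean, against 4.97%, 1.73% and 2.73% in ENCDC libraries 1, 2 and 4, and its smooth muscle sum was 18%, against 6.08%, 4.51% and 2.72%. It was also the highest ENCDC library for epithelium (19.2%), macrophage (6.29%) and mesothelium (8.1%) markers. ENCDC library 1 was the highest for endothelium (15.9%, library 3 13.1%) and library 2 for erythroid markers (1.49%, library 3 1.21%). The part of other cells in the kinesin values of ENCDC library 3 was not tested. Values without that library are given beside some of the results, and not for every member that it changes.

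Among transport kinesins, 9 of 21 were called higher in ENCDCs and 1 was called lower, with an adjusted p under 0.05 in edgeR's quasi-likelihood test. Over all 18866 genes tested, 17.0% were called higher, 20.9% lower and 37.9% either way. Among mitotic kinesins, 6 of 13 were called higher and none was called lower, either by this test, by voom with limma or by DESeq2, or at an unadjusted p under 0.05 by any of these 3 tools. At an unadjusted p under 0.05, 8 mitotic kinesins were higher, and the share of all genes at this unadjusted threshold was not counted. Of the 10 other kinesins, 1 was called higher and 1 lower. Without ENCDC library 3, 11 transport and 7 mitotic kinesins were called higher. Over all genes, 3535 of 18626 tested were called higher without it, against 3212 of 18866 with all libraries. The 4 ENCDC libraries all lay above the 4 gut libraries for 17 of the 44 members, where 16.9% of all genes tested did so, and all lay below them for 2 members, where 21.3% did so and 38.2% separated either way. The classes differed in the size of the differences. Called and at least 2-fold higher were 7 transport kinesins and no mitotic kinesin, where 8.26% of all genes tested passed this mark. Called and at least 2-fold lower was 1 member, the other kinesin *Kif26b*, where 16.1% of all genes did so. The mitotic log2 fold changes lay between -0.39 and 0.63 against -0.92 and 5.06 for transport kinesins. The median log2 fold change was 0.43 for mitotic and 0.47 for transport kinesins, and -0.66 for other kinesins, beside -0.04 over all genes tested. In a bulk comparison such as this, fewer cells of a type and less RNA per cell cannot be told apart.

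**Figure D1:**
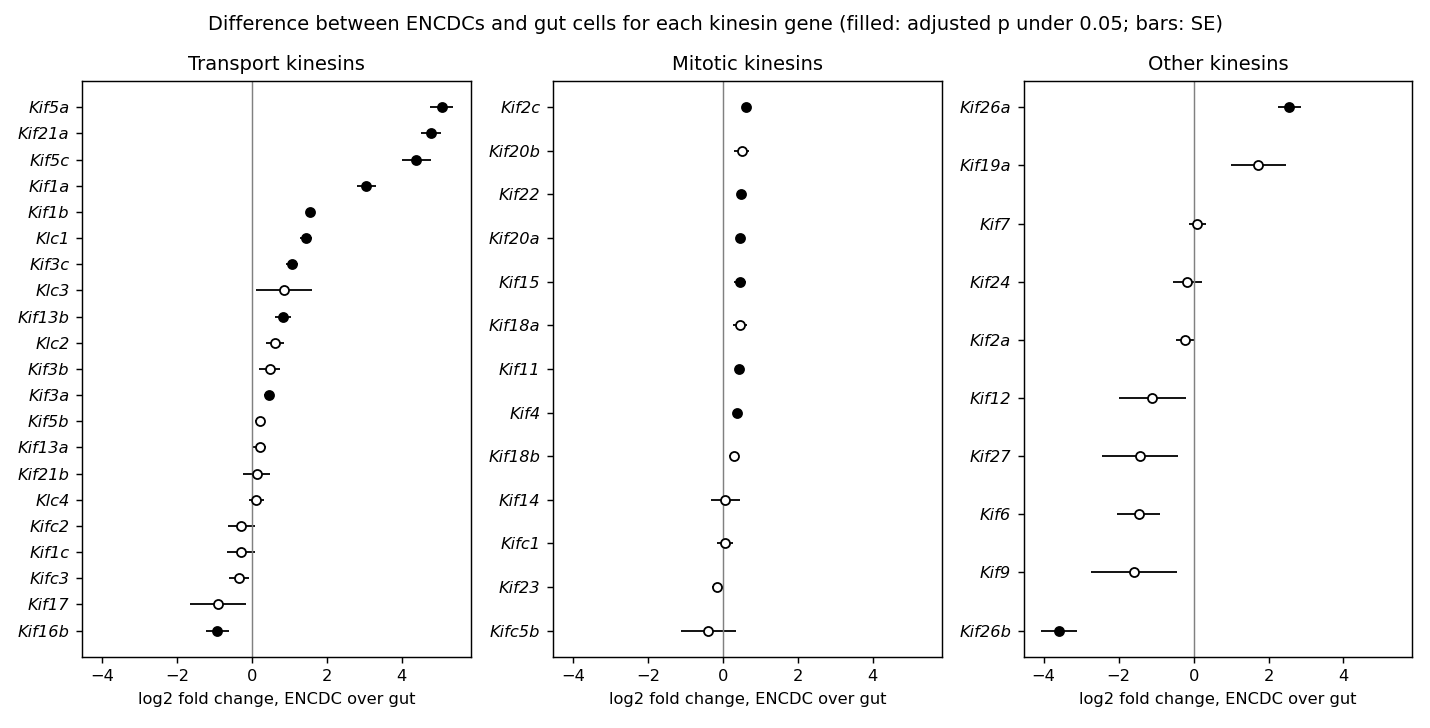
Log2 fold change, ENCDCs over gut cells, of each of the 44 kinesin genes, in 3 panels by class, with the standard error as a bar. Filled points passed an adjusted p of 0.05 in edgeR. Transport kinesins reached 5.06 and mitotic kinesins stayed at 0.63 or below.

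The 3 heavy chains of kinesin-1, the main motor of fast axonal transport, did not behave alike. *Kif5a* (chromosome 10, 127225696 to 127263348 in mm10), the neuronal heavy chain mutated in a hereditary spastic paraplegia in people, had 1121, 1230, 775 and 1468 normalized counts in ENCDC libraries 1 to 4, against 45.7, 26.6, 18.7 and 46.5 in gut libraries 1 to 4. *Kif5c* (chromosome 2, 49619298 to 49774778), also enriched in neurons, had 2743, 2624, 1482 and 2983 in ENCDC libraries, against 182, 83.7, 44.4 and 158 in gut libraries. For both genes every ENCDC library lay far above every gut library, and library 3 was the lowest ENCDC library. The log2 fold change was 5.06 ± 0.31 for *Kif5a* (SE, edgeR adjusted p = 3.84e-07), a ratio of means of 33.4, and 4.39 ± 0.39 for *Kif5c* (adjusted p = 6.87e-06), a ratio of 21.0. Without ENCDC library 3 they were 5.21 and 4.57. *Kif5b*, the heavy chain found in most cell types, had 2958, 2752, 2189 and 2921 normalized counts in ENCDC libraries, against 2415, 1930, 2682 and 2324 in gut libraries. These ranges overlap, since ENCDC library 3 lay below 3 of the gut libraries. Its log2 fold change of 0.21 ± 0.13 had an adjusted p of 0.223, and without ENCDC library 3 the adjusted p was 0.0465.

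To set genes beside each other, counts were divided by the kilobases of all annotated exons of a gene, merged. The length of the isoforms that were expressed was not measured, so comparisons between genes on this scale are approximate. Per kilobase of exon, the 3 heavy chains summed to 848 ± 176 normalized counts in ENCDC libraries and 314 ± 39.5 in gut libraries (SD, n = 4 each). *Kif5b* made up 40.6% ± 4.09 of this sum in ENCDCs and 93.2% ± 3.21 in gut cells. *Kif5c* made up 40.1% ± 3.41 in ENCDCs and 5.22% ± 2.63 in gut cells, and *Kif5a* 19.3% ± 1.54 in ENCDCs and 1.57% ± 0.589 in gut cells. In gut cells the kinesin-1 heavy chain transcripts were thus nearly all *Kif5b*, while in ENCDCs *Kif5b* and *Kif5c* had shares within 1 SD of each other. No share of any of the 3 genes overlapped between the populations.

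Kinesin light chains join the heavy chains to cargo. *Klc1* (chromosome 12, 111758849 to 111807844), the light chain best known from neurons, had 3222, 4336, 2731 and 3576 normalized counts in ENCDC libraries, against 1257, 1293, 1047 and 1511 in gut libraries. Every ENCDC library lay above every gut library, and the log2 fold change was 1.44 ± 0.15 (edgeR adjusted p = 2.63e-05). Per kilobase of exon *Klc1* was the highest of all 44 genes in ENCDCs, at 852, and the fifth highest in gut cells, at 314. *Klc2*, another cargo adaptor of kinesin-1, had 152, 147, 140 and 159 in ENCDC libraries, against 87.4, 91.5, 88.8 and 125 in gut libraries. The libraries did not overlap, but the log2 fold change of 0.61 ± 0.24 missed the threshold in edgeR (adjusted p = 0.0723). *Klc4* had 389, 596, 803 and 555 in ENCDC libraries, against 557, 454, 589 and 559 in gut libraries. *Klc3* was low, with 27.4, 49.8, 71.3 and 3.1 in ENCDC libraries, against 18.5, 14.8, 19.7 and 30.7 in gut libraries. Both overlapped between the populations, with adjusted p of 0.688 for *Klc4* and 0.404 for *Klc3*, and *Klc3* shares 28.1% of its exon length with *Ercc2* on the other strand. Within the light chains, per kilobase, *Klc1* held 73.9% ± 7.56 in ENCDCs and 54.7% ± 4.82 in gut cells.

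The kinesin-3 motors carry vesicles and mitochondria. *Kif1a* (chromosome 1, 93015464 to 93101951), which carries the precursors of synaptic vesicles and dense-core vesicles, had 1030, 887, 847 and 1806 normalized counts in ENCDC libraries, against 123, 142, 141 and 144 in gut libraries. *Kif1b* (chromosome 4, 149176319 to 149307693), whose isoforms carry mitochondria and synaptic vesicle precursors, had 4182, 3628, 4141 and 4967 in ENCDC libraries, against 1405, 1490, 1489 and 1395 in gut libraries. The populations did not overlap for either gene. The log2 fold change was 3.05 ± 0.25 for *Kif1a* (edgeR adjusted p = 3.17e-06) and 1.55 ± 0.10 for *Kif1b* (adjusted p = 7.58e-07). *Kif1c*, a widely expressed kinesin-3, had 34.5, 36.6, 44.2 and 47.5 in ENCDC libraries, against 49.5, 59.1, 42.4 and 49.5 in gut libraries, which overlap (log2 fold change -0.30, adjusted p = 0.574). Per kilobase *Kif1b* was the main member of the 3 in both populations, with 66.0% ± 5.26 of their sum in ENCDCs and 79.2% ± 1.05 in gut cells. The share of *Kif1a* was 32.5% ± 5.42 in ENCDCs and 14.2% ± 0.821 in gut cells.

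Of the other kinesin-3 members, *Kif13b* (chromosome 14, 64647265 to 64809617), which moves phosphoinositide-bearing vesicles and the scaffold Dlg1, had 419, 435, 397 and 638 normalized counts in ENCDC libraries, against 197, 257, 339 and 266 in gut libraries. The libraries did not overlap and the log2 fold change was 0.83 ± 0.22 (edgeR adjusted p = 0.0109). *Kif13a*, a motor of recycling endosomes, had a log2 fold change of 0.21 (adjusted p = 0.346). Its lowest ENCDC library was library 3, at 577, and without that library the adjusted p was 0.0254. *Kif16b* (chromosome 2, 142617474 to 142901531), which moves early endosomes, was the transport kinesin called lower in ENCDCs. It had 372, 353, 142 and 405 in ENCDC libraries, against 740, 456, 743 and 470 in gut libraries, so that the highest ENCDC library lay below the lowest gut library. The log2 fold change was -0.92 ± 0.30 (adjusted p = 0.0338). This call was lost when ENCDC library 2 (adjusted p = 0.0512), gut library 1 (0.092) or gut library 3 (0.0927) was left out.

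*Kif21a* and *Kif21b* are kinesin-4 motors that act on the growth of microtubules in axons and dendrites, and human *KIF21A* mutations misroute the nerves of the eye muscles. *Kif21a* (chromosome 15, 90933276 to 91049948) had 2061, 1611, 1178 and 1730 normalized counts in ENCDC libraries, against 59.3, 39.4, 50.3 and 91.1 in gut libraries. Its lowest ENCDC value was many times its highest gut value, with a log2 fold change of 4.77 ± 0.27 (edgeR adjusted p = 2.17e-07) and a ratio of means of 27.4. *Kif21b* had 134, 133, 406 and 179 in ENCDC libraries, against 176, 180, 252 and 172 in gut libraries. The *Kif21b* ranges overlap, and its log2 fold change of 0.13 ± 0.36 (adjusted p = 0.817) was -0.39 without ENCDC library 3, its highest library. *Kif21a* made up between 84.5% and 96.7% of the pair, per kilobase, in ENCDC libraries and between 27.3% and 49.9% in gut libraries.

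The kinesin-2 motors serve both cilia and axons. *Kif3a* and *Kif3b* form, with the adaptor *Kifap3*, the motor of anterograde transport in the cilium, and *Kif3c* pairs with *Kif3a* in neurons. *Kif3a* had 1972, 1608, 1292 and 1381 normalized counts in ENCDC libraries, against 1089, 1241, 1096 and 1160 in gut libraries. *Kif3c* (chromosome 12, 3365132 to 3406494) had 794, 802, 1209 and 1156 in ENCDC libraries, against 478, 432, 416 and 559 in gut libraries. For both genes all ENCDC libraries lay above all gut libraries. The log2 fold change was 0.45 ± 0.14 for *Kif3a* (edgeR adjusted p = 0.0233) and 1.07 ± 0.17 for *Kif3c* (adjusted p = 0.000621). The *Kif3a* call was lost without ENCDC library 1 (adjusted p = 0.0616), gut library 1 (0.062) or gut library 3 (0.0604). *Kif3c* shares 35.3% of its exon length with *1110002L01Rik* on the other strand, and in an unstranded library the reads of such a pair cannot be told apart. *Kif3b* had 319, 220, 552 and 407 in ENCDC libraries, against 287, 263, 334 and 195 in gut libraries. Its values overlap, at a log2 fold change of 0.47 ± 0.28 (adjusted p = 0.211). *Kifap3* averaged 1572 ± 123 in ENCDC libraries and 1480 ± 141 in gut libraries (SD, n = 4 each, adjusted p = 0.56).

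The remaining transport members gave no call. *Kif17*, a motor of dendrites and cilia, had a log2 fold change of -0.91 (edgeR adjusted p = 0.382), from 1.03 to 34.1 normalized counts in ENCDC libraries and from 25.6 to 32.7 in gut libraries. *Kifc2* and *Kifc3* carry their motor at the C-terminus and walk toward the minus end. Their log2 fold changes were -0.29 for *Kifc2* (adjusted p = 0.572) and -0.34 for *Kifc3* (adjusted p = 0.365). None of these 3 genes separated the populations.

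**Figure D2:**
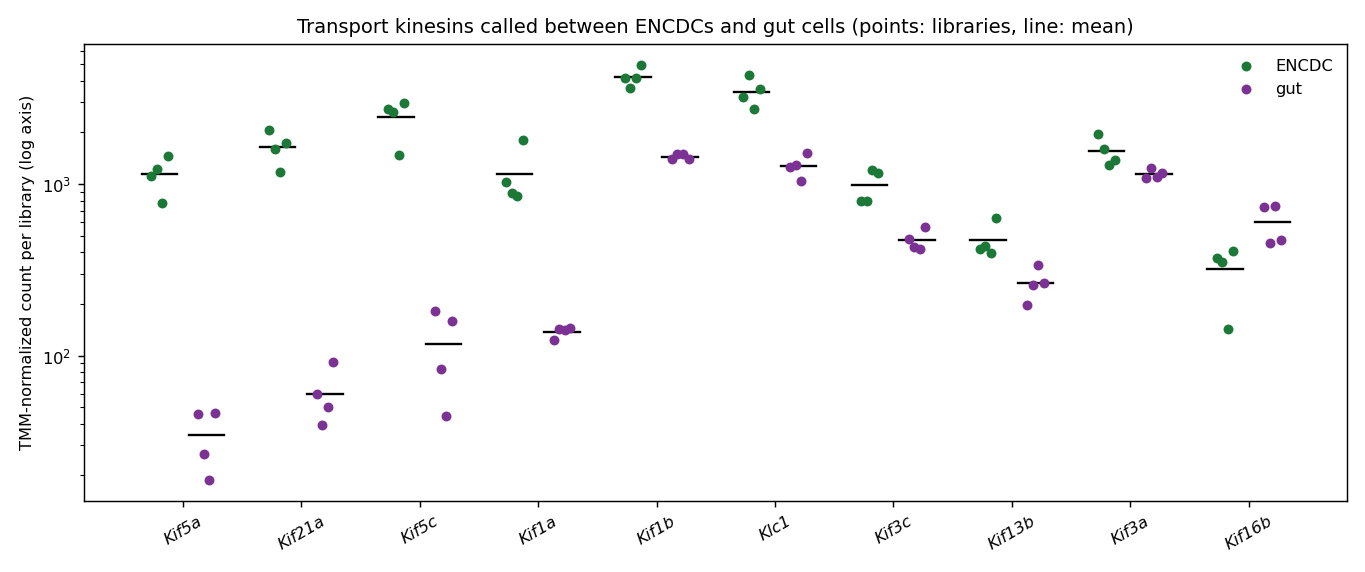
TMM-normalized counts of the 10 transport kinesins called between the populations, on a log axis, with 1 point per library and a line at the mean, ENCDCs in green and gut cells in purple. The 4 ENCDC libraries of *Kif5a* lie between 775 and 1468, and those of *Kif16b* are the ones that lie below gut cells.

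The cargo adaptors and regulators of kinesins were counted from a separate list. Of 26 tested, 11 were called higher in ENCDCs and 3 lower, with a median log2 fold change of 0.39, where 17.0% of all genes tested were called higher and 20.9% lower with a median of -0.04. *Fez1*, a kinesin-1 adaptor of axonal cargo, had 2354, 2551, 2288 and 2169 normalized counts in ENCDC libraries, against 225, 328, 291 and 254 in gut libraries (log2 fold change 3.09 ± 0.13, edgeR adjusted p = 3.50e-08). *Clstn1*, which links vesicles to kinesin light chains, had a log2 fold change of 0.55 (adjusted p = 0.00616), *Mapk8ip3*, a scaffold between kinesin-1 and its cargo, one of 0.55 (adjusted p = 0.018), and *Rhot1*, which ties mitochondria to kinesin, one of 0.38 (adjusted p = 0.0205). Chosen after its values were seen, *Hap1*, the huntingtin-associated adaptor, averaged 1876 ± 111 in ENCDC libraries and 116 ± 12.0 in gut libraries (SD, n = 4 each, adjusted p = 3.59e-09). The list also held genes that were lower in ENCDCs, namely *Fez2* (log2 fold change -0.66, adjusted p = 0.000865), the widely expressed paralog of *Fez1*, the liprin *Ppfia4* (-1.88, adjusted p = 0.00611) and the kinesin-like *Stard9* (-1.43, adjusted p = 0.00119). The gene of the KIF1-binding protein, named *Kif1bp* in the table, is disrupted in Goldberg-Shprintzen syndrome, in which the distal bowel may lack neurons. It averaged 1051 ± 93.2 in ENCDCs and 1021 ± 57.4 in gut cells, a difference within the spread of the libraries (adjusted p = 0.794, chosen after its values were seen).

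For dynein and dynactin, the minus-end motor and its activator, 10 of 25 genes were called higher and 1 lower, with a median log2 fold change of 0.34, beside the same 17.0% and 20.9% of all genes. Without ENCDC library 3, 13 were called higher, where 3535 of all 18626 genes tested were called higher. The called genes with the highest counts were *Dynll1*, a dynein light chain (log2 fold change 0.27, edgeR adjusted p = 0.0354), and the dynactin subunits *Actr1a* (0.88, adjusted p = 1.52e-05), *Actr1b* (0.60, adjusted p = 0.000363) and *Dctn2* (0.53, adjusted p = 0.000796). The light chain *Dynlt3* was lower in ENCDCs, at 522 ± 31.8 normalized counts, against 790 ± 80.8 in gut cells (SD, n = 4 each, adjusted p = 0.00284). Of the 25 genes, 2 were called and at least 2-fold higher, a share near the 8.26% of all genes tested.

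The mitotic kinesins had a narrow spread of differences. *Kif20a*, which brings the chromosomal passenger complex to the central spindle, had 3279, 3456, 3139 and 3216 normalized counts in ENCDC libraries, against 1858, 2569, 2682 and 2326 in gut libraries. *Kif22* (chromosome 7, 127027729 to 127042471), a chromokinesin that pushes chromosome arms, had 2589, 2993, 2663 and 2617 in ENCDC libraries, against 1716, 1999, 2114 and 1882 in gut libraries. *Kif11* (chromosome 19, 37376403 to 37421859), the motor that drives spindle poles apart, had 2541, 2590, 2375 and 2501 in ENCDC libraries, against 1548, 1788, 2137 and 1978 in gut libraries. All ENCDC libraries lay above all gut libraries for each of these genes, with the 4 ENCDC libraries close together. The log2 fold change was 0.47 ± 0.11 for *Kif20a* (edgeR adjusted p = 0.00731), 0.49 ± 0.10 for *Kif22* (adjusted p = 0.00197) and 0.43 ± 0.11 for *Kif11* (adjusted p = 0.00943). Of the *Kif20a* exon length, 29.3% overlaps *Cdc23* on the other strand.

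*Kif2c* (chromosome 4, 117159639 to 117182639), which shortens microtubules at centromeres, had the largest difference among called mitotic kinesins. It had 1925, 2371, 2408 and 1864 normalized counts in ENCDC libraries, against 1221, 1298, 1571 and 1433 in gut libraries, with a log2 fold change of 0.63 ± 0.12 (edgeR adjusted p = 0.00194). *Kif4*, a chromokinesin that also sets the length of the midzone, had 1213, 1363, 1256 and 1151 in ENCDC libraries, against 1005, 819, 961 and 1039 in gut libraries. Neither gene overlapped between the populations. *Kif4* had a log2 fold change of 0.38 ± 0.11 (adjusted p = 0.0192), and its call was lost without ENCDC library 2 (adjusted p = 0.0547) or gut library 2 (0.0676), while 15.1% of its exon length overlaps *Pdzd11* on the other strand. *Kif15*, which can take over from *Kif11* in keeping the spindle bipolar, had 1090, 1388, 1292 and 1382 in ENCDC libraries, against 704, 800, 1144 and 1109 in gut libraries. These overlap in ENCDC library 1, and the *Kif15* call (log2 fold change 0.46 ± 0.17, adjusted p = 0.0495) was lost under 9 of the 15 alternative settings, with adjusted p between 0.0543 and 0.154 when lost.

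The other mitotic kinesins had adjusted p above 0.05. *Kif23*, the centralspindlin motor, was among the most abundant and had 1336, 1508, 1155 and 929 normalized counts in ENCDC libraries, against 1337, 1388, 1352 and 1439 in gut libraries (log2 fold change -0.16 ± 0.14, edgeR adjusted p = 0.398). *Racgap1*, its partner in centralspindlin, was called higher at 3618 ± 327 in ENCDCs, against 2460 ± 299 in gut cells (SD, n = 4 each, log2 fold change 0.56, adjusted p = 0.00191). *Racgap1* was thus called and *Kif23* was not. The ENCDC values of *Kif23* lay on both sides of its gut values, so the sign of its log2 fold change is not established. *Kif20b*, a motor of late cytokinesis, and *Kif18a*, which damps chromosome movement at plus ends, had log2 fold changes of 0.50 ± 0.21 (adjusted p = 0.088) and 0.46 ± 0.18 (adjusted p = 0.0671). ENCDC library 3 was the lowest ENCDC library for both, at 639 for *Kif20b* and 499 for *Kif18a*, and without it the adjusted p was 0.0166 for *Kif20b* and 0.0026 for *Kif18a*. *Kif18b*, which works with *Kif2c* at microtubule ends, had a log2 fold change of 0.29 (adjusted p = 0.113) and *Kif14*, a midbody kinesin, one of 0.07 (adjusted p = 0.909). *Kifc1*, the minus-end motor that focuses spindle poles, had one of 0.06 (adjusted p = 0.856). Its close paralog *Kifc5b* had one of -0.39 (adjusted p = 0.716), and both values are uncertain because reads of near-identical copies may be split or lost in counting.

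**Figure D3:**
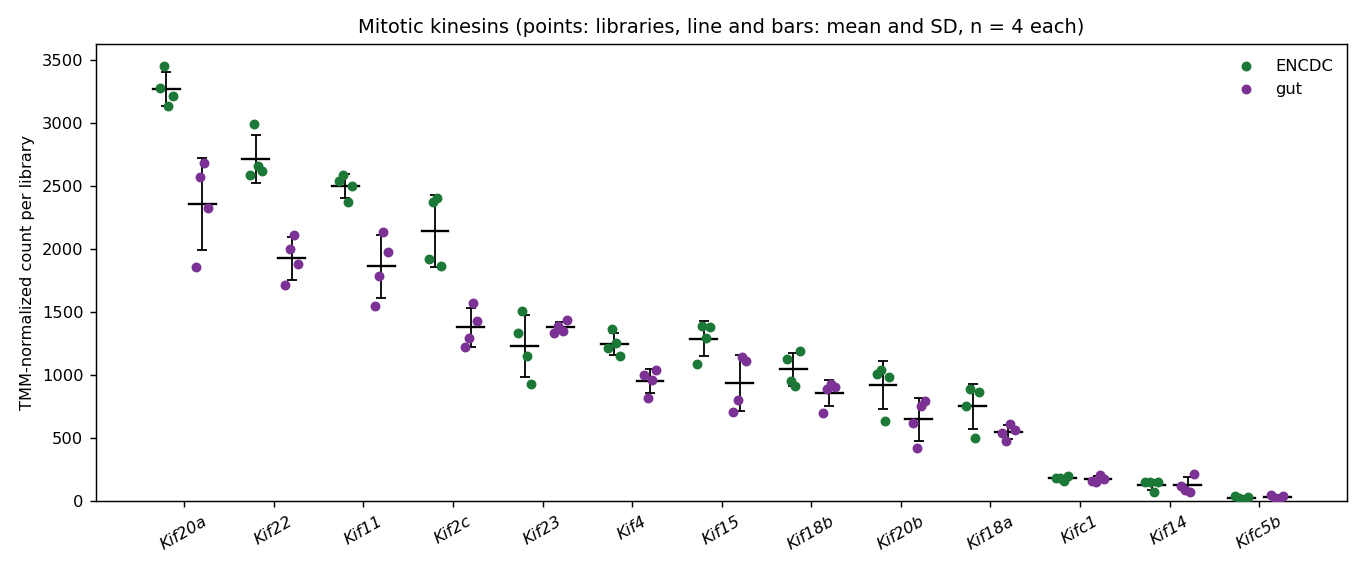
TMM-normalized counts of the 13 mitotic kinesins on a linear axis from 0, with 1 point per library, ENCDCs in green and gut cells in purple, and the mean and SD of 4 libraries. The 4 ENCDC libraries of *Kif11* lie between 2375 and 2590.

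Genes that work with the mitotic kinesins in division were counted beside them. Of 29 tested, 13 were called higher in ENCDCs and none lower by edgeR, by voom with limma or by DESeq2, or at an unadjusted p under 0.05, with a median log2 fold change of 0.34, where 17.0% of all genes tested were called higher and 20.9% lower. The share of all genes at an unadjusted p under 0.05 was not counted. Without ENCDC library 3, 16 were called higher, where 3535 of all 18626 genes tested were called higher. The called genes with the highest counts were *Ccnb1*, cyclin B1 (log2 fold change 0.60, edgeR adjusted p = 0.00149), *Bub1b* of the spindle checkpoint (0.33, adjusted p = 0.0309), *Racgap1*, and *Tpx2*, the activator of Aurora A (0.51, adjusted p = 0.00255). *Mki67*, the general marker of cycling cells, averaged 2863 ± 678 normalized counts in ENCDC libraries and 2866 ± 276 in gut libraries (SD, n = 4 each, adjusted p = 0.994). *Cenpe*, a kinesin of the kinetochore whose symbol is outside the rule, had a log2 fold change of 0.47 (adjusted p = 0.142). Both of these genes were chosen after their values were seen.

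Transcripts of mitotic genes are known to rise together before division, and the 250 bases before the RefSeq starts of the members were searched for letters known from cell cycle promoters. The motifs were CCAAT, the box bound by NF-Y, TTTGAA, the core of the cell cycle homology region, and GGCGGGAA, an E2F-like site, each on both strands. A RefSeq window was matched for 35 of the 44 members, and *Kif5a* was among those without one. CCAAT occurred in 8 of 12 mitotic windows (66.7%), in 5 of 14 transport windows (35.7%), in 4 of 9 windows of other kinesins (44.4%) and in 39.5% of windows of all tested genes. The mitotic windows with CCAAT include those of the paralogs *Kifc1* and *Kifc5b*, which are near copies of each other and were counted separately. TTTGAA occurred in 5 of 12 mitotic windows (41.7%), in 1 of 14 transport windows (7.14%), in 2 of 9 windows of other kinesins (22.2%) and in 13.0% of all tested genes. Both motifs together occurred in 3 of 12 mitotic windows (25.0%), in none of the transport windows, in 2 of 9 windows of other kinesins (22.2%) and in 4.79% of all tested genes. Some of these windows lie well inside the gene as annotated, with a RefSeq start 1505 bases inside *Kif14*, 3867 inside *Kif2c* and 4175 inside *Kif27*, each of which holds TTTGAA. The *Kif1a* window that holds the transport TTTGAA match has its RefSeq start 19471 bases inside the gene. That of *Kif17*, with neither CCAAT nor TTTGAA, lies 11816 bases inside. With windows whose RefSeq start is over 500 bases from the annotated start of the gene left out, CCAAT was in 7 of 10 mitotic, 5 of 13 transport and 3 of 8 other kinesins, TTTGAA in 3 mitotic, no transport and 1 other kinesin, and both in 2 mitotic and 1 other kinesin. The windows of all tested genes were not filtered in this way. GGCGGGAA was in none of the 12 mitotic windows and in 3.79% of all tested genes, and *Kif6* was the member that held it. These counts describe letters and not bound sites.

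The 150 bases before the RefSeq start (GRCm38.p6) are printed for 4 mitotic kinesins with such letters and for *Kif5c* and *Kif21a*, transport kinesins of large difference that hold none of the 3 motifs in these bases. Capitals mark CCAAT or TTTGAA, which read ATTGG and TTCAAA when they lie on the other strand. RefSeq starts can differ from those of the annotation used for gene positions.

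Kif11, chr19:37376232-37376381, plus strand: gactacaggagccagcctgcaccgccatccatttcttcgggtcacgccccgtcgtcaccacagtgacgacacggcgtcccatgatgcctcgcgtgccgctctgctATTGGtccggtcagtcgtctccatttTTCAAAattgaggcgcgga
Kif22, chr7:127042421-127042570, minus strand: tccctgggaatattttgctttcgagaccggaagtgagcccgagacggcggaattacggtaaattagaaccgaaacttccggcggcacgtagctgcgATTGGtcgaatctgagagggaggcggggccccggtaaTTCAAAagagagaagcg
Kif15, chr9:122950931-122951080, plus strand: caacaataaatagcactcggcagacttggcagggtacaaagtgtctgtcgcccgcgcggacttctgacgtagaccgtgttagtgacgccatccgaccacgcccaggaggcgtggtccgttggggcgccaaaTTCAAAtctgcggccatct
Kif18b, chr11:102925125-102925274, minus strand: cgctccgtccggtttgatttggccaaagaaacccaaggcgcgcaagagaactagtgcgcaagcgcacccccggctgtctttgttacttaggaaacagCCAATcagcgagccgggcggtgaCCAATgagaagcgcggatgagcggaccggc
Kif5c, chr2:49619136-49619285, plus strand: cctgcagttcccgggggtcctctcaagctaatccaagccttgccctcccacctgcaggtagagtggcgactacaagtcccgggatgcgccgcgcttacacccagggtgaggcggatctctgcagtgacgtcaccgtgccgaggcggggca
Kif21a, chr15:91049952-91050101, minus strand: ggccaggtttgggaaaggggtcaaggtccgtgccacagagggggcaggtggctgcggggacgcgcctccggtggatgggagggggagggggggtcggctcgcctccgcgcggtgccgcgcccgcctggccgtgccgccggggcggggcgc

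In *Kif11* the CCAAT match opens 45 bases before the start and the TTTGAA match 19 bases before it, and in *Kif22* they open 54 and 17 bases before it. *Kif15* has TTTGAA 19 bases before its start and no CCAAT in these bases, and *Kif18b* has CCAAT at 53 and 30 bases and no TTTGAA. These TTTGAA matches all read on the other strand. The genes were picked for printing because they hold the letters, and other members have TTTGAA elsewhere, as *Kif26b* at 9 bases and *Kif2c* at 103 bases before the RefSeq start.

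The other kinesins held the largest difference toward gut cells. *Kif26b* (chromosome 1, 178529125 to 178939200), which in the mouse kidney is needed in the mesenchyme around the ureteric bud, had 65, 24.4, 215 and 73.3 normalized counts in ENCDC libraries, against 1168, 1049, 1130 and 1190 in gut libraries. Its paralog *Kif26a* (chromosome 12, 112146208 to 112181747), which restrains GDNF-Ret signalling in enteric neurons and whose loss causes megacolon in mice, had 655, 922, 726 and 1572 in ENCDC libraries, against 130, 112, 216 and 203 in gut libraries. The paralogs thus stood at opposite ends without overlap between the populations. The log2 fold change was -3.58 ± 0.48 for *Kif26b* (edgeR adjusted p = 0.000144), 12.0 times higher in gut cells by the ratio of means, and 2.55 ± 0.31 for *Kif26a* (adjusted p = 7.84e-05). ENCDC library 3 had the highest ENCDC level of *Kif26b*, and without it the log2 fold change was -4.38 (adjusted p = 2.69e-07). That library also had the highest mesenchyme marker sum, 12.2% of the gut mean, and its *Kif26b* level of 215 lay beside a gut mean of 1134 ± 61.8 (SD, n = 4). Whether other cells contributed to it was not tested. Per kilobase, *Kif26a* held between 87.8% and 98.8% of the pair in ENCDC libraries and between 18.5% and 28.9% in gut libraries.

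The remaining 8 other kinesins, most of them tied to cilia, gave no call. *Kif7*, a ciliary regulator of Hedgehog signalling, had 241, 236, 255 and 385 normalized counts in ENCDC libraries, against 269, 212, 314 and 251 in gut libraries (log2 fold change 0.10, edgeR adjusted p = 0.768). *Kif2a*, which shortens microtubules and trims axon branches, had a log2 fold change of -0.22 (adjusted p = 0.538), and *Kif24*, which holds back cilium assembly, one of -0.17 (adjusted p = 0.765). *Kif19a*, which limits cilium length, had 18.3, 12.2, 15.1 and 20.7 in ENCDC libraries, against 6.8, 6.89, 4.93 and 0.99 in gut libraries. The *Kif19a* libraries did not overlap, at a log2 fold change of 1.73 ± 0.73 (adjusted p = 0.0843). *Kif6* and *Kif9*, found in motile cilia, had log2 fold changes of -1.47 (adjusted p = 0.061) and -1.59 (adjusted p = 0.306). *Kif12* had one of -1.10 (adjusted p = 0.37) and *Kif27*, a relative of *Kif7*, one of -1.43 (adjusted p = 0.306). *Kif9*, *Kif12* and *Kif27* each had an ENCDC library at 0.

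**Figure D4:**
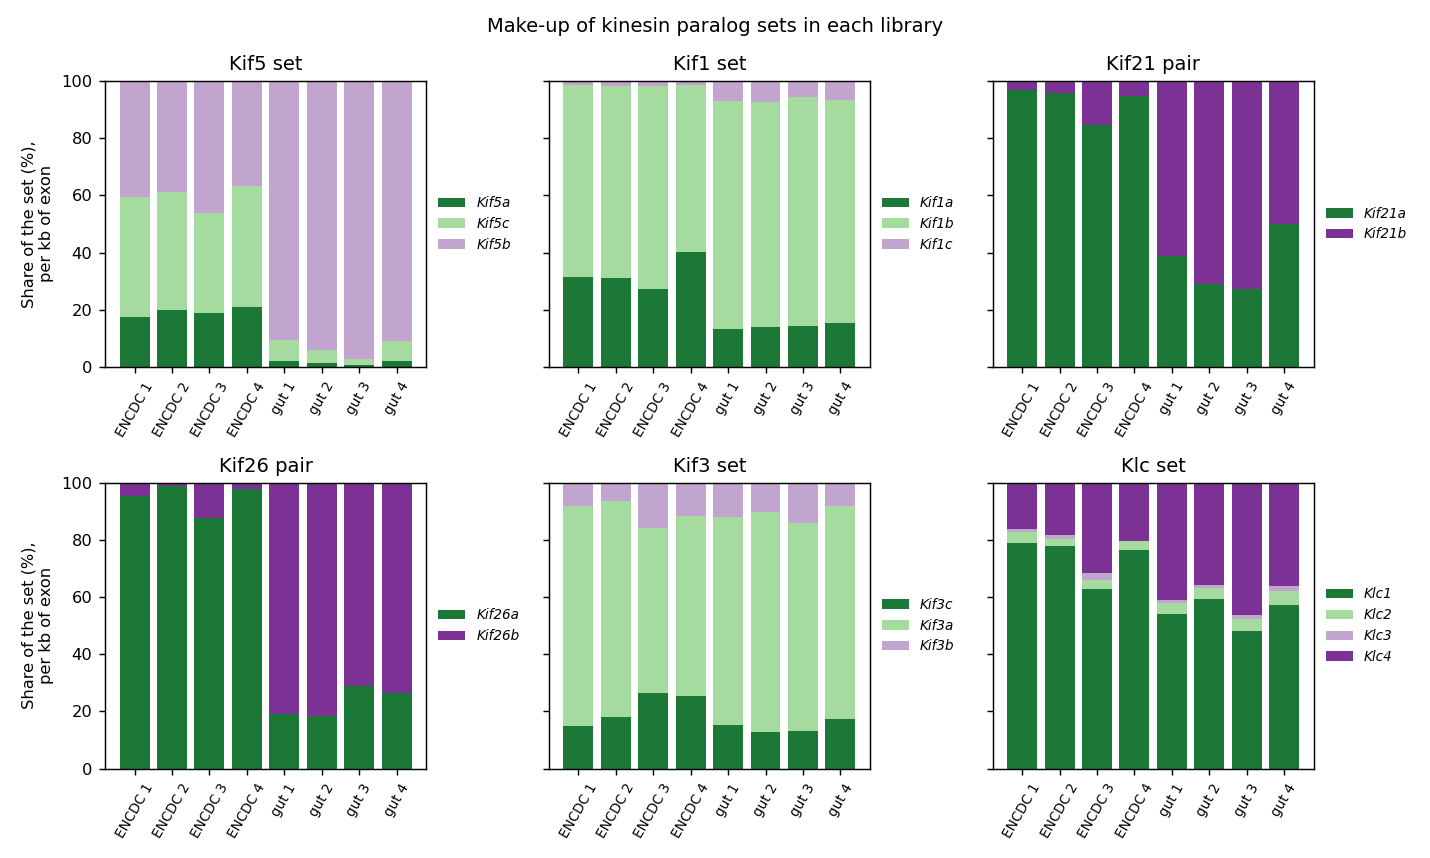
Share of each paralog in 6 kinesin sets, in percent of the summed count per kilobase of exon, with 1 bar per library and the 4 ENCDC libraries left of the 4 gut libraries. *Kif5b* is 93.2% of the *Kif5* set in gut cells and 40.6% in ENCDCs on average, and the *Kif21* and *Kif26* pairs change their main member.

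Summed over each class, transport kinesins came to 23126, 22591, 19174 and 25723 normalized counts in ENCDC libraries, against 10253, 9438, 10460 and 10418 in gut libraries, a ratio of means of 2.23. Mitotic kinesins came to 17240, 18912, 16580 and 17085 in ENCDC libraries, against 11584, 12721, 14555 and 13900 in gut libraries, a ratio of 1.32. Neither sum overlapped between the populations. Within a library, the transport sum divided by the mitotic sum was 1.34, 1.19, 1.16 and 1.51 in ENCDC libraries, against 0.885, 0.742, 0.719 and 0.75 in gut libraries. Every ENCDC library thus had more transport than mitotic kinesin counts and every gut library had fewer. These sums are in counts and weigh long and abundant transcripts most, and without ENCDC library 3 the ratios of means were 2.35 for transport and 1.35 for mitotic kinesins.

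**Figure D5:**
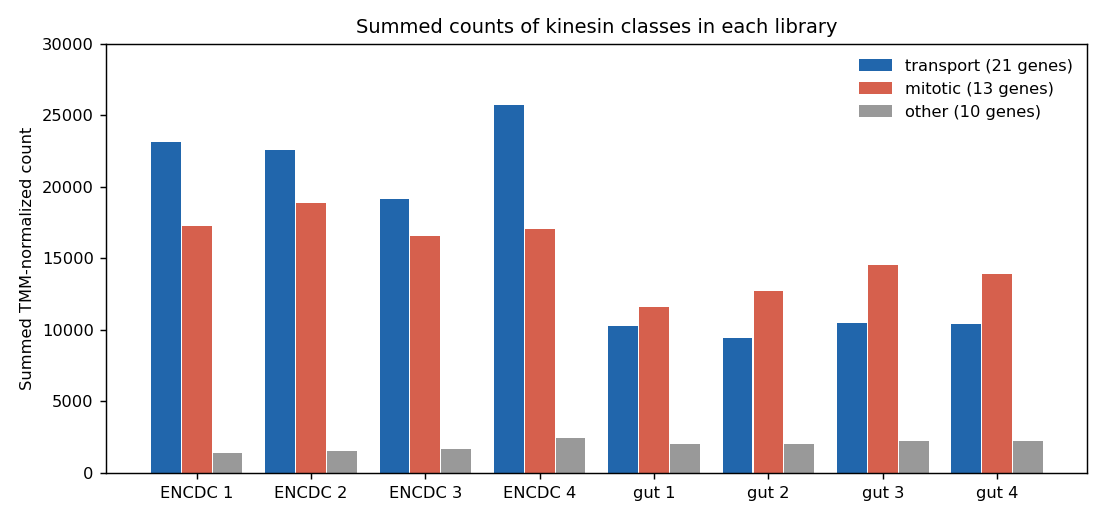
Summed TMM-normalized counts of 21 transport, 13 mitotic and 10 other kinesins in each library, with the 4 ENCDC libraries left of the 4 gut libraries and the axis from 0. The transport bar is taller than the mitotic bar in each ENCDC library and shorter in each gut library.

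On the per-kilobase scale the order of members changed between the populations. In ENCDCs the highest levels were those of *Klc1* at 852, *Kif20a* at 754, *Kif22* at 554, *Kif2c* at 491 and *Kif3a* at 436. In gut cells the highest were *Kif20a* at 544, *Kif22* at 393, *Kif3a* at 320, *Kif2c* at 316 and *Klc1* at 314, so the same 5 genes led both, the last 3 of them close together in gut cells. *Kif5c* ranked 6 in ENCDCs, at 344, and 30 in gut cells, at 16.4. *Kif21a* ranked 10 in ENCDCs, at 254, and 36 in gut cells, at 9.27, and *Kif5a* ranked 14 in ENCDCs, at 164, and 41 in gut cells, at 4.92. The mitotic motors *Kif20a*, *Kif22*, *Kif2c* and *Kif11* were among the 8 highest in both populations. These levels rest on merged exon lengths, and 29.3% of the *Kif20a* exon length overlaps *Cdc23* on the other strand.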

How the data were processed

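The authors sorted cells, made SMARTer cDNA and NexteraXT libraries and aligned reads with STAR 2.4.2a to mm10. They deposited a gene table whose values were whole numbers with near-equal library totals, taken here as counts after the equal-depth resampling of their pipeline. The table used here held minimum normalized read counts, the kind the authors analysed for mRNA. For small RNAs they used maximum counts, because many miRNA host genes are duplicated. How reads of near-identical kinesin copies were counted was not examined. The series text also speaks of CPM, but the deposited counts have far larger totals than CPM would. Genes were tested with a mean of at least 3 counts and detection in at least 3 of the 4 libraries, in either population, which left 18866 of 29092. ENCDCs were compared with gut cells in edgeR 4.0.16 (R 4.3.3) by TMM normalization and the quasi-likelihood test, with Benjamini-Hochberg adjustment over all tested genes. The authors used voom with limma, which was run as an alternative (limma 3.58.1), as were DESeq2 1.42.0, other size factors and filters, a replicate block and leaving out each library. The script was tested on simulated counts in which 200 genes were changed, far fewer than were called in the data. There edgeR recovered 11.7% of 1.5-fold, 34.4% of 2-fold and 58.1% of 4-fold changes. Of its 66 calls 0% fell on unchanged genes, against 20.3% of 118 DESeq2 calls. Exon lengths and positions came from GENCODE M21, matched for 29035 genes, and promoter windows from RefSeq.

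The kinesin genes, their classes and the partner lists were chosen with earlier results of these data known. Every member is named. Values in every library are given for the called transport members with the 8 largest differences among those with a mean of at least 100 in the higher population, the 6 most abundant and all called mitotic members, called other members with a mean of at least 50, and the *Kif5*, *Kif1*, *Kif3* and *Klc* sets. From each partner list, up to 4 called genes of highest mean are named as well as genes called opposite to most of the list. Reads were not assigned by strand. *Kif2b*, *Kif19b*, *Kif25* and *Kif28* were not analysed here, and protein sequences were not used here.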

Additional observations from a re-analysis of the deposited data

Results flagged for a closer look

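In 10 of 88 groups of 4 libraries, 1 library lay far from the other 3 by Dixon's criterion, which chance meets in about 1 in 20 groups. ENCDC library 3 was the lowest for *Kif20b* (639 normalized counts) and *Kif14* (72.3) and the highest for *Kif21b* (406). ENCDC library 4 was the highest for *Kif7* (385) and *Kif13b* (638), and ENCDC library 1 for *Kif9* (12.2). Gut library 1 was the lowest for *Kif1a* (123), gut library 4 the highest for *Klc2* (125), gut library 2 for *Kif9* (33.5) and gut library 3 for *Kif21b* (252).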

How the results depend on the processing

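Of the 18 called members, 14 were called under all 15 alternatives. The exceptions were *Kif15*, *Kif4*, *Kif3a* and *Kif16b*. With a replicate block the transport count of lower calls was 0 and that of all members 1, since *Kif16b* had an adjusted p of 0.0662. Leaving out 1 library gave 0 to 1 lower transport calls, 1 to 2 lower calls among other kinesins, 1 to 2 among all members and 3 to 5 among kinesin partners, the highest without ENCDC library 4. Among other kinesins voom gave 2 higher calls, with *Kif19a*, and voom and DESeq2 gave 2 lower calls, with *Kif6*. DESeq2 called 2 dynein genes lower. The cause of these changes was not tested. Same-numbered libraries did not deviate together (correlations between -0.0133 and 0.0318), so the numbers were not taken as pairs. With the block *Kif4* also lost its call (adjusted p = 0.0569), 11 mitosis partners in place of 13 were called higher, and no other member's call changed. Some members not called changed sign under an alternative. For these, leaving out 1 library moved the log2 fold change between -0.07 and 0.27 for *Klc4*, -0.68 and 0.06 for *Kif24*, -0.39 and 0.30 for *Kif21b*, -0.10 and 0.19 for *Kif7*, -0.03 and 0.16 for *Kifc1* and -0.12 and 0.46 for *Kif14*. Others kept their sign but moved further over the 15 alternatives, as *Kif9* between -3.09 and -0.47, *Kif12* between -2.48 and -0.68 and *Kif27* between -2.17 and -0.74. *Kif21b* was -0.02 with the block and -0.02 with voom. Mitotic higher calls were between 4 and 7, transport ones between 8 and 11. Over all genes, higher calls were between 2609 with the block and 3535 without ENCDC library 3. Lower calls over all genes were 3946 of 18866 tested in the main fit, 3324 with the block, 4279 with DESeq2 and 4353 with voom. Leaving out 1 library gave between 3311 of 18331, without gut library 1, and 4243 of 18626, without ENCDC library 3. The values were taken as counts after equal-depth resampling, so their near-equal totals do not show how deeply each library was sequenced.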
